A study of Mus musculus with 18 samples.

Results

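The collagen genes are described here as one family: all 44 mouse genes whose symbol has the collagen form (Col, a type number, the letter a and a chain number). They were matched by Ensembl identifier in the endothelial table, where they made up 44 of 55401 genes, and by symbol in the table of tumour cells, where they made up 44 of 22612. The membership rule used the names alone and no measured value. By structure the genes were divided into 11 fibrillar, 8 basement membrane and 25 other genes. The last group comprised 6 chains of type VI microfibrils, 3 short-chain network collagens, 9 fibril-associated collagens, 4 transmembrane collagens and 3 remaining genes, namely Col7a1 of the anchoring fibrils, Col26a1 and Col28a1.

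RNA sequencing had been carried out on 18 mouse libraries, 3 in each of 6 groups. Blood vessel endothelial cells (BECs) came from the mammary fat pad (BEC normal) or from primary EO771 tumours (BEC tumour), and endothelial cells of high endothelial venules (HECs) came from lymph nodes (HEC normal) or from tissue labelled as lymph node metastases (HEC tumour). All were sorted from wild-type female C57BL/6 mice, obtained at 5 to 6 weeks of age, as CD45-negative cells with high CD31, and the HECs also by peripheral node addressin. The other 6 libraries came from the murine breast cancer line EO771, grown with vehicle or with 12-HETE, a lipid that arachidonate 12-lipoxygenase makes, at 100 nM for 48 h according to the methods of the study.

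The design compared HECs with BECs, tumour with normal tissue and 12-HETE with vehicle. Fat pads were digested with collagenase I, lymph nodes with collagenase P and dispase, and tumours with collagenases I and III and hyaluronidase, so tissue and digestion cannot be told apart. In the same way every HEC library came from lymph node tissue and every BEC library from breast tissue, so cell type and tissue of origin cannot be told apart. The legends of the study call its experiments independent, but the labels do not tie a library to a mouse or culture, so p-values measure the spread between these libraries.

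Collagens are extracellular proteins whose chains wind around one another into a helix. The fibrillar types form the rope-like fibrils of connective tissue, the basement membrane types form the sheet under endothelium and epithelium, and the remaining types join fibrils, anchor cells or span the plasma membrane. In blood vessels the endothelium and the pericytes and smooth muscle cells around it share a basement membrane built on type IV collagen, and mural cells and fibroblasts are the usual source of fibrillar collagen.

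The endothelial values summed to between 56.411 and 79.358 M per library. They were whole numbers that piled up in steps of about 3.845, which puts the depth at 14.671 to 20.639 M steps, and the EO771 counts summed to between 17.295 and 18.624 M. The 10 endothelial markers summed to between 2494 and 3654 CPM (counts scaled to the library total) in every sorted library, and the 6 high endothelial markers to between 984 and 3061 CPM in HECs and at most 17.1 CPM in BECs. HEC normal replicate 2 stood apart with 4.07 normalised counts of Chst4, a sulfotransferase of high endothelial cells, beside 19906 and 20205 in the other HEC normal libraries. HEC tumour replicate 3 held 14255 normalised counts of the fucosyltransferase gene Fut7, beside 66477 and 65523.

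Markers of other cells moved with the BEC groups. The 10 markers of pericytes and smooth muscle, none of them a collagen, summed to between 874 and 906 CPM in BEC normal, between 82.0 and 126 CPM in BEC tumour, between 32.3 and 34.8 CPM in HEC normal and between 19.1 and 21.7 CPM in HEC tumour. Smooth muscle actin, Acta2, led that list with a mean of 43028 normalised counts in BEC normal and 3270 in BEC tumour, while the pericyte markers Kcnj8 and Abcc9 were at 0 in all 3 BEC normal libraries. The 10 fibroblast markers summed to between 122 and 127 CPM in BEC normal, between 32.9 and 39.7 CPM in BEC tumour and between 23.8 and 35.2 CPM in HECs, with Lum and Dpt at 0 in BEC normal. The lower fibroblast sum in BEC tumour was carried by Fbln1, at means of 7252 and 1090 normalised counts, whereas 4 of the 9 tested markers were called higher there (Dcn, Dpt, Pi16, Mfap5) and 2 lower (Pdgfra, Fbln1), at a median log2 fold change of 1.11. The 6 leukocyte markers summed to between 603 and 993 CPM in BEC tumour and to at most 11.4 CPM in the other sorted groups. The 6 epithelial markers reached 77.6 CPM in BEC tumour replicate 3 and stayed at or below 3.31 CPM in the other sorted groups. The part of these cells in the collagen values was not tested.

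RefSeq start-site sequences were available for 35 of the 44 collagen genes. The 250 bases before the start are shown for 3 genes on which the results below turn, in the GRCm38.p6 build and on the strand of the gene. Col13a1, a transmembrane collagen, was the gene that was abundant in BEC normal and at 0 in BEC tumour. Col8a1, a short-chain collagen of vessel walls, was below its normal-tissue level with tumour in both endothelial cell types, and Col11a2, a fibrillar chain, was called higher with tumour in HECs and lower with 12-HETE in EO771 cells. Capitals mark GC boxes (GGGCGG or its reverse complement CCGCCC) and TATA boxes (TATAAA or TTTATA).
Col13a1, chr10:61979109-61979358, minus strand: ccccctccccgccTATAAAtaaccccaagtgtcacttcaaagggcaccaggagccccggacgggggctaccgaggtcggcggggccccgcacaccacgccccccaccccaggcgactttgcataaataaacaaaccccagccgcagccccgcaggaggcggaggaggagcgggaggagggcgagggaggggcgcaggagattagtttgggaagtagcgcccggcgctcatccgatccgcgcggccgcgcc
Col8a1, chr16:57754738-57754987, minus strand: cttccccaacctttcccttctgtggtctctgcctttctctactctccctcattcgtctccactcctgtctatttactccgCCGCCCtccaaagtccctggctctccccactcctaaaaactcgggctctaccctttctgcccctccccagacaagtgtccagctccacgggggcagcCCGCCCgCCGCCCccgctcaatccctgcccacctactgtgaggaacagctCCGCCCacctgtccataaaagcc
Col11a2, chr17:34038888-34039137, plus strand: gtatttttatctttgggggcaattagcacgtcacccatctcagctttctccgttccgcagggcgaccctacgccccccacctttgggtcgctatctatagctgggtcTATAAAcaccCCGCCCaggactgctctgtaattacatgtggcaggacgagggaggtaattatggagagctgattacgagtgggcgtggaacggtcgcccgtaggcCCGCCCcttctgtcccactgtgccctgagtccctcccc
The Col8a1 window held 4 GC boxes, the nearest 17 bases from the start. The Col11a2 window held 2 GC boxes, the nearest 32 bases from the start, and 1 TATA box, 137 bases from the start. The Col13a1 window held 1 TATA box, 231 bases from the start, and no GC box. GC content was 60.8%, 57.6% and 68.8% in that order. GC boxes occurred in 22 of the 38 windows of collagen genes (57.9%) and in 10756 of all 32851 windows (32.7%), and the median GC content was 59% and 52.4%. CCAAT boxes (CCAAT or ATTGG) occurred in 13 collagen windows (34.2%) against 33.8% of all, and TATA boxes in 5 (13.2%) against 12.4%. None of the 3 printed windows overlapped an annotated exon. These are matches of letters only.

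**Figure D1:**
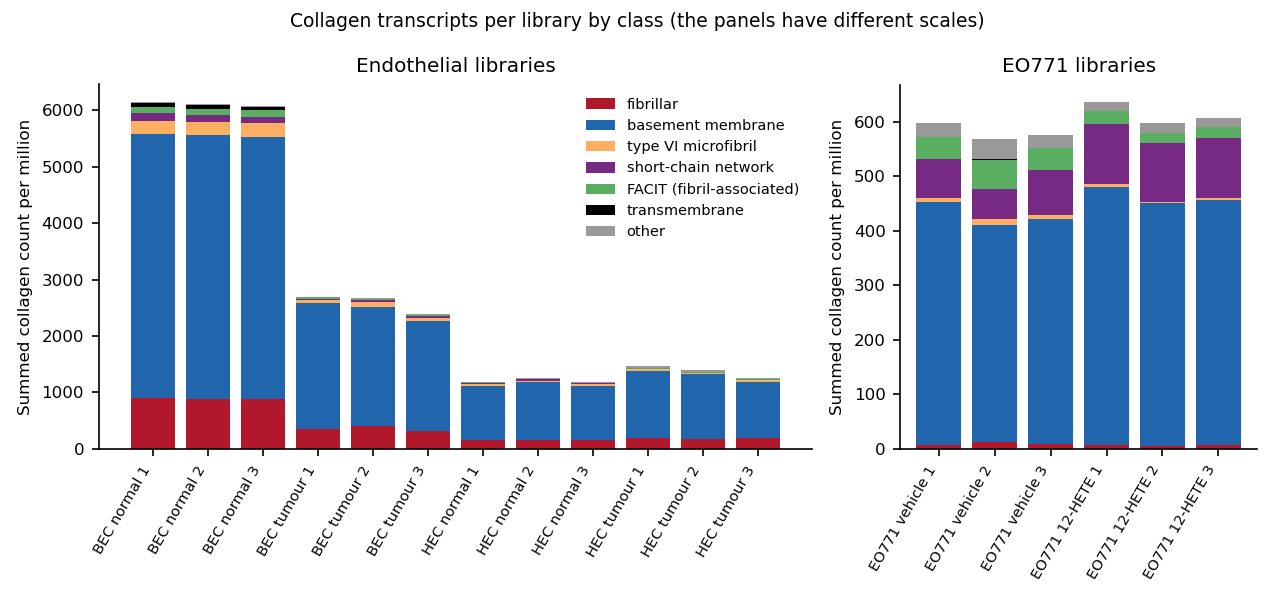
Summed collagen CPM in each library, stacked by collagen class, for the 12 endothelial libraries (left) and the 6 EO771 libraries (right, on its own scale). The BEC normal bars stand near 6114 CPM, the BEC tumour bars between 2384 and 2696, and all HEC bars between 1186 and 1460, with basement membrane genes as the largest block in every bar.

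BEC normal held the most collagen RNA of the sorted groups, and basement membrane chains made up most of it in every group. Summed over the 44 genes, collagen transcripts made up 6114 ± 35.0 CPM in BEC normal and 2583 ± 173 CPM in BEC tumour (mean ± SD, n = 3). In HECs they made up 1209 ± 36.1 CPM in normal and 1369 ± 104 CPM in tumour samples. No library of BEC normal, BEC tumour or HECs overlapped another of these 3 sets, whereas HEC normal and HEC tumour lay next to each other, at 1186 to 1251 and 1256 to 1460 CPM. The sums were not tested, since 0.1 is the smallest p that exact permutation of 3 against 3 libraries allows. In such bulk samples fewer cells of a type and less RNA per cell cannot be told apart.

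Counted per kb of exon, the basement membrane genes made up 77.9% ± 0.0416 of collagen signal in BEC normal, 83.2% ± 1.39 in BEC tumour, and 82.3% ± 0.468 and 82.3% ± 1.59 in HECs of normal and tumour samples (SD, n = 3). The pair Col4a1 and Col4a2 alone gave 67.3%, 78.9%, 80.3% and 80.6% of the same signal, in the same order of groups. Fibrillar genes gave between 10.2% and 12.4% in every sorted library.

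On the scale of mean normalised counts per kb of exon, the order of levels began with Col4a1 and Col4a2 in each of the 4 sorted groups. In BEC normal these levels were 23675 and 15688 per kb, followed by Col18a1 at 5216, Col5a2 at 2460, Col5a1 at 2331 and Col6a1 at 2075. Col5a2 and Col5a1 were neighbours in that order with SDs of 63.2 and 61.5, and their order was the reverse in BEC normal replicate 2. In BEC tumour the order ran Col4a1 (10481 per kb), Col4a2 (8434), Col5a1 (2086), Col6a1 (688) and Col4a5 (645), and in HEC normal Col4a1 (5253), Col4a2 (3982), Col5a1 (1063), Col6a1 (480) and Col4a5 (197). HEC tumour had the same first 5 genes, at 5214, 4783, 1222, 367 and 174 per kb, and its Col4a1 and Col4a2 levels, with SDs of 862 and 106, stood in the reverse order in replicate 3.

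**Figure D2:**
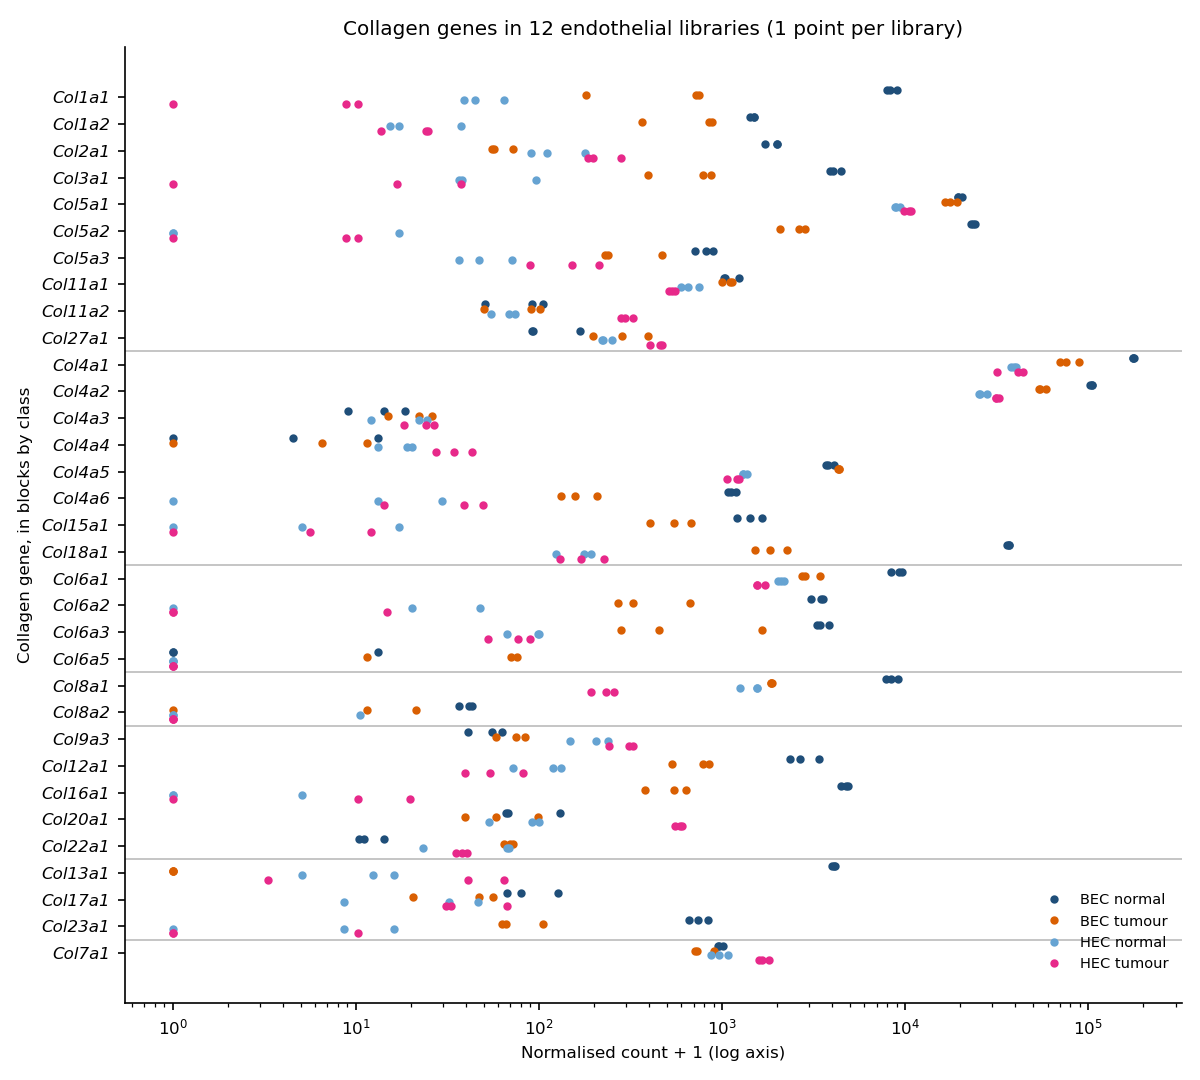
Normalised count plus 1 (log axis) of the 33 collagen genes tested in the endothelial table, 1 point per library, in blocks by class from fibrillar at the top to Col7a1 at the bottom. BEC normal lies farthest right for most genes, HEC normal and HEC tumour share their range for most genes, and Col11a2, Col20a1 and Col7a1 show HEC tumour apart on the right.

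Over the 12 endothelial libraries 33 of the 44 genes averaged 10 or more, and only these were tested. The other 11 were Col24a1, Col6a4, Col6a6, Col10a1, Col9a1, Col9a2, Col14a1, Col19a1, Col25a1, Col26a1 and Col28a1, whose highest value in any endothelial library was 27.1 normalised counts, for Col6a4 in BEC normal. Several tested genes passed this filter only through the group in which they were high, so the shares below describe the tested genes and are no support for a direction of the family. A gene was called at an adjusted p under 0.05 and a log2 fold change over 1 in size, by the Wald test of DESeq2 with Benjamini-Hochberg adjustment over all 18511 genes tested, and all adjusted p-values below are from that test. The median log2 fold change of all genes tested lay between -0.002 and 0.019 in the endothelial comparisons. No fold of a collagen gene is given where the mean of a compared group was at or under the floor, which is 3 steps or 11.5 units of the table.

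Between the BEC groups, 16 of the 33 tested collagen genes fell with tumour and 2 rose, with a median log2 fold change of -1.37. Of all genes tested, 10.8% fell and 12.4% rose in this comparison. The genes that fell were 6 of 10 fibrillar (Col1a1, Col1a2, Col2a1, Col3a1, Col5a2, Col5a3), 3 of 8 basement membrane (Col4a1, Col4a6, Col18a1), 2 of 4 type VI (Col6a1, Col6a3), the short-chain Col8a1, the fibril-associated Col12a1 and Col16a1, and the transmembrane Col13a1 and Col23a1. Col27a1, a fibrillar collagen first known from cartilage, and the fibril-associated Col22a1 rose. The pericyte and smooth muscle sum, led by Acta2, was lower and the leukocyte sum higher in BEC tumour. The fibroblast markers were called in both directions, and Kcnj8 and Abcc9 went the other way from their sum, as given above. The part of all these cells in this comparison was not tested. Without BEC tumour replicate 3, which held the most epithelial RNA, 13 genes fell and 2 rose, and the calls of Col1a2, Col5a2 and Col23a1 were lost. Those of Col5a2 and Col23a1 were also lost without any 1 other BEC library, so only the loss of Col1a2 was particular to this one.

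HEC normal differed from BEC normal in 24 of the 33 tested genes, 22 of them lower and 2 higher, at a median log2 fold change of -3.63. The background was 15.1% of all genes lower and 17.1% higher. The lower genes were 7 of 10 fibrillar, 6 of 8 basement membrane, 3 of 4 type VI, 1 of 2 short-chain, 2 of 5 fibril-associated and all 3 tested transmembrane genes. Col9a3, a chain of the type IX collagen that decorates cartilage fibrils, and Col22a1 were the 2 higher genes. Pericyte and smooth muscle markers were at 874 to 906 CPM in BEC normal and 32.3 to 34.8 CPM in HEC normal beside these differences. Their part was not tested. Without HEC normal replicate 2 the counts were again 22 lower and 2 higher.

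HEC tumour against BEC tumour gave 19 lower and 7 higher genes, with a median log2 fold change of -1.05 and a background of 10.7% lower and 11.2% higher. The higher genes were Col2a1, Col11a2, Col4a4, Col9a3, Col20a1, Col13a1 and Col7a1. Among the lower genes, Col8a2 was called between groups that both lay at or under the floor. This comparison set the marker sums of pericytes and smooth muscle at 19.1 to 21.7 CPM beside 82.0 to 126 CPM, and those of leukocytes at 3.97 to 7.07 CPM beside 603 to 993 CPM. The part of these cells was not tested. Without HEC tumour replicate 3 the counts were 18 lower and 6 higher, and Col4a1 and Col4a4 lost their calls. Among the lower genes, the calls of Col11a1, Col6a5, Col8a2 and Col4a1 were lost without BEC tumour replicate 1, those of Col11a1, Col5a3 and Col6a5 without BEC tumour replicate 2, that of Col8a2 without BEC tumour replicate 3, that of Col5a3 without HEC tumour replicate 1 and those of Col11a1 and Col8a2 without HEC tumour replicate 2.

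With tumour in HECs, 3 of the 33 tested genes rose (Col5a3, Col11a2, Col20a1) and 2 fell (Col1a1, Col8a1), against a background of 4.58% higher and 3.21% lower, and the median log2 fold change was 0.07. Neither a basement membrane nor a type VI gene was called. The count of genes that rose was 6 without HEC normal replicate 2, which added Col2a1, Col16a1 and Col27a1, 5 without HEC normal replicate 3 and 5 without HEC tumour replicate 3. The count that fell was 5 without HEC tumour replicate 1 and 3 without HEC tumour replicate 3, HEC normal replicate 1 or HEC normal replicate 3.

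The change with tumour was compared between the cell types by a contrast of the change in HECs less the change in BECs. It was higher in HECs for 14 genes and lower for 1, Col22a1, at a median of 1.06 on the log2 scale, where 11.2% of all genes were called higher and 12.1% lower. The 14 were Col2a1, Col5a3 and Col11a2 (fibrillar), Col4a1, Col4a2, Col4a6 and Col18a1 (basement membrane), Col6a1 and Col6a3 (type VI), Col12a1, Col16a1 and Col20a1 (fibril-associated), Col13a1 and Col7a1. The difference for Col6a3 and Col12a1 held under some settings only, and with edgeR neither was called. The count of higher genes was 15 without HEC normal replicate 2 and 14 without HEC tumour replicate 3, with Col6a3 lost in both cases. The same tumour and normal libraries enter several of these comparisons, so their values are not independent of each other.

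**Figure D3:**
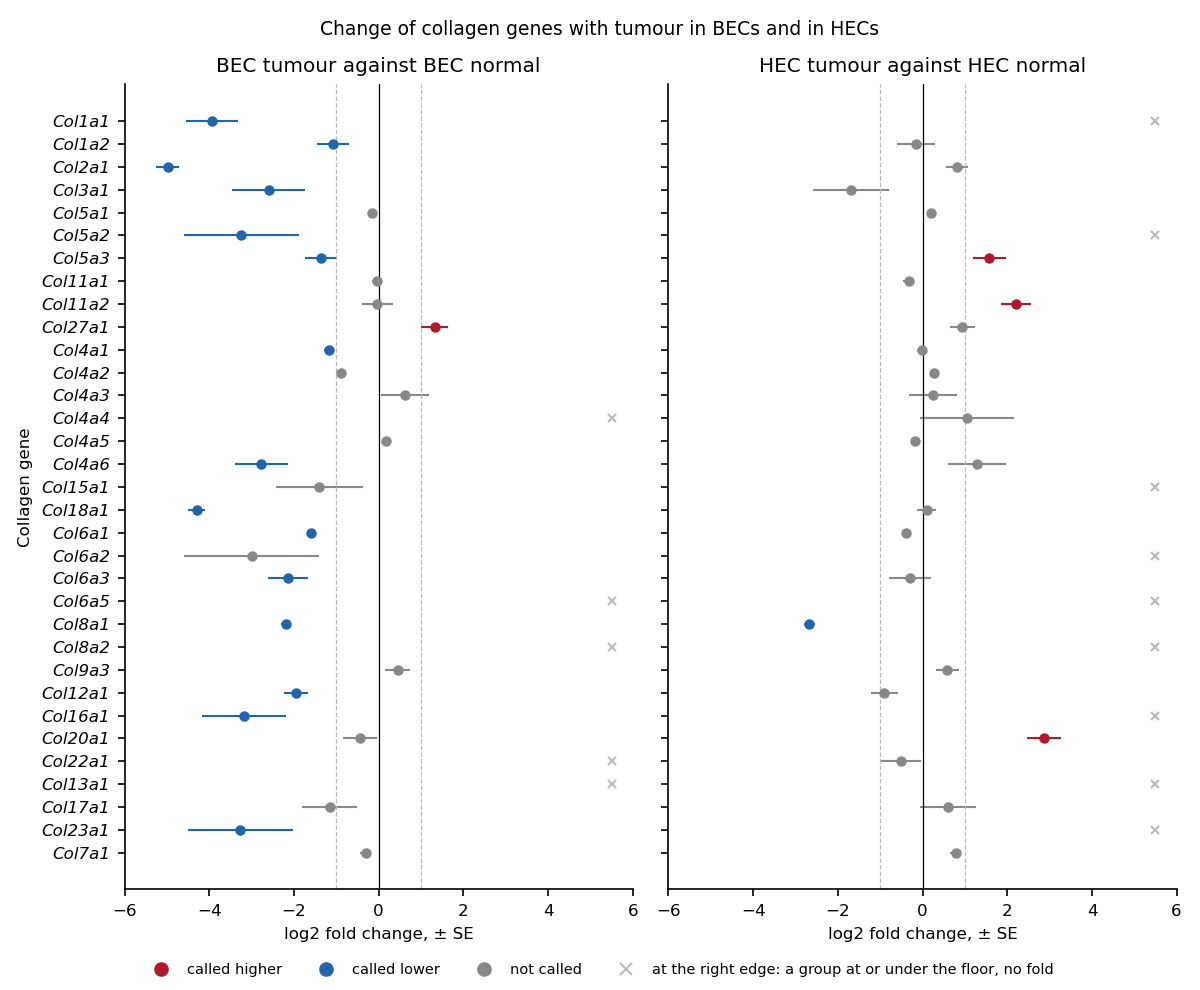
Fitted log2 fold change ± SE with tumour in BECs (left) and HECs (right) for the 33 tested collagen genes, with dashed lines at a log2 fold change of 1 in size and crosses for genes with a group at or under the floor. In BECs 15 genes called lower lie to the left and Col27a1 to the right, whereas in HECs Col8a1 lies at -2.68 and Col5a3, Col11a2 and Col20a1 lie to the right.

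Type IV collagen is the backbone of vascular basement membrane, and its Col4a1 and Col4a2 chains assemble together. Col4a1 (chr8:11198423-11312826, minus strand) and Col4a2 (chr8:11312805-11449287, plus strand) stand head to head, with annotated starts 21 bases apart. Col4a1 had 175854, 177731 and 176546 normalised counts in BEC normal and 88940, 75756 and 69999 in BEC tumour, a 2.26-fold fall (log2 fold change -1.18 ± 0.12 SE, adjusted p = 2.39e-21). Its values in HEC normal were 39349, 40312 and 37961, and in HEC tumour 43855, 41258 and 31646. The BEC groups overlapped neither each other nor the HECs, while the HEC groups overlapped each other at a log2 difference of -0.01 ± 0.12 (adjusted p = 0.97).

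Col4a2 had 101766, 105332 and 104410 normalised counts in BEC normal and 53847, 59185 and 54440 in BEC tumour. That log2 difference of -0.90 ± 0.06 (adjusted p = 8.2e-55) stayed inside the limit for a call. In HEC normal it had 25273, 27993 and 25804 and in HEC tumour 32466, 31332 and 31187 normalised counts, 1.20-fold apart with no overlap (log2 0.26 ± 0.06, adjusted p = 2.4e-05). Both chains were lower in HEC normal than in BEC normal, Col4a1 4.51-fold and Col4a2 3.94-fold. The contrast of the changes was 1.16 ± 0.17 for Col4a1 and 1.16 ± 0.08 for Col4a2 on the log2 scale.

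The ratio of Col4a1 to Col4a2, both per kb of exon, was highest to lowest in the order BEC normal (1.51 ± 0.02), HEC normal (1.32 ± 0.0537), BEC tumour (1.25 ± 0.189) and HEC tumour (1.09 ± 0.164; SD, n = 3). BEC normal lay above every other sorted library. The lowest ratio of all, 0.900, belonged to HEC tumour replicate 3, and the call of Col4a1 as lower in HEC tumour than in BEC tumour (log2 fold change -1.01 ± 0.12) was lost without that library or without BEC tumour replicate 1.

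The other type IV chains behaved in separate ways. Col4a5, which joins Col4a3 and Col4a4 or Col4a6 in specialised basement membranes, had 3716, 3771 and 4084 normalised counts in BEC normal and 4293, 4341 and 4375 in BEC tumour, a log2 difference of 0.17 ± 0.07 that was not called. It was 2.92-fold lower in HEC normal than in BEC normal, at 1294, 1301 and 1373 normalised counts, and HEC tumour had 1209, 1231 and 1067. Col4a6, its head-to-head neighbour, had 1115, 1077 and 1188 in BEC normal but 132, 206 and 156 in BEC tumour, a 6.84-fold fall (adjusted p = 4.04e-05). So the ratio of Col4a5 to Col4a6 per kb went from 4.07 ± 0.101 to 32.3 ± 6.91 (SD, n = 3), and its ranges did not overlap. In HEC normal Col4a6 had 0, 12.2 and 28.7 normalised counts, just above the floor on average, and in HEC tumour 38.1, 48.4 and 13.3. Col4a3 stayed between 8.13 and 25.7 normalised counts in every sorted library. Col4a4 reached 26.6, 33.6 and 42.1 in HEC tumour, above its values of at most 10.5 in BEC tumour, and that call was lost with edgeR and without any 1 of 8 libraries.

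Col18a1 and Col15a1 encode the multiplexins, basement membrane collagens that carry sugar chains, and the end fragment of the Col18a1 protein is endostatin. Col18a1 (chr10:77052178-77166548, minus strand) had 35925, 37164 and 36785 normalised counts in BEC normal and 1514, 2275 and 1822 in BEC tumour. This 19.6-fold fall (log2 -4.29 ± 0.20, adjusted p = 5.01e-104) was the largest in size among the basement membrane genes in that comparison. HEC normal held 174, 123 and 191 and HEC tumour 168.5, 129 and 227 normalised counts, with overlapping ranges. The groups thus took 3 levels, BEC normal, BEC tumour and the HECs, and the contrast of the changes was 4.39 ± 0.29 (adjusted p = 2.2e-49). Acta2, the leading pericyte and smooth muscle marker, went from 43028 ± 487 to 3270 ± 865 normalised counts (mean ± SD) between the same BEC groups. Of the 8 tested markers of that list 5 were called lower and 0 higher, where 10.8% of all genes fell. The untested Kcnj8 and Abcc9 went the other way, from 0 in BEC normal to above the floor in BEC tumour. The part of such cells in the Col18a1 values was not tested. Col15a1 had 1654, 1203 and 1419 in BEC normal, 402, 676 and 545 in BEC tumour and at most 16.2 in any HEC library. Its BEC groups did not overlap, yet the difference was not called (log2 -1.40 ± 1.03, adjusted p = 0.255), and it was called when the BEC libraries were fitted alone.

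**Figure D4:**
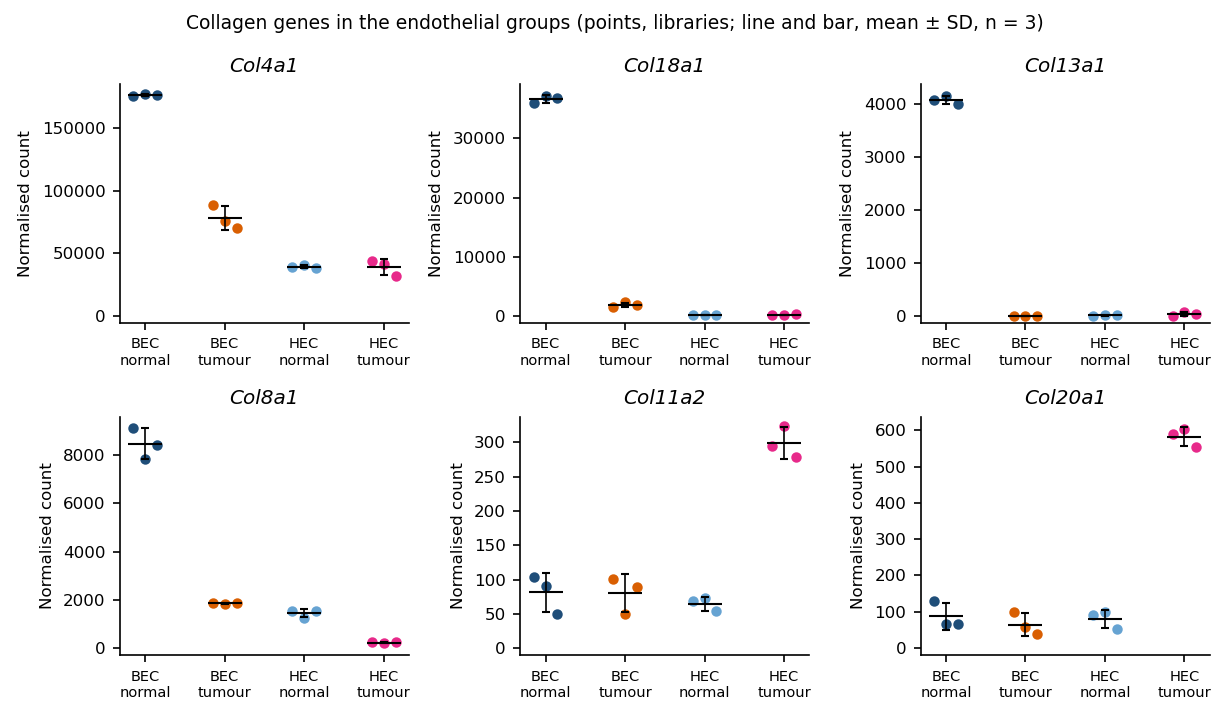
Normalised counts of 6 collagen genes in the 4 endothelial groups, with points for libraries and a line and bar for the mean ± SD (n = 3), on linear axes of different scale. Col4a1, Col18a1, Col13a1 and Col8a1 are highest in BEC normal, whereas Col11a2 and Col20a1 are highest in HEC tumour, at means of 299 and 582 normalised counts.

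Type I collagen, the main fibril of connective tissue, is built from Col1a1 and Col1a2 chains. Col1a1 had 7971, 9057 and 8280 normalised counts in BEC normal and 724, 745 and 181 in BEC tumour, a 15.3-fold fall (log2 -3.94 ± 0.61, adjusted p = 7.66e-10). Col1a2 had 1490, 1504 and 1422 in BEC normal and 847, 886 and 364 in BEC tumour, a 2.11-fold fall (adjusted p = 0.00775) whose call was lost without BEC tumour replicate 3. Col1a1 exceeded Col1a2 10.9 ± 0.656 times per kb in BEC normal and 1.38 ± 0.385 times in BEC tumour (SD, n = 3), so the chains did not fall together. In HEC normal Col1a1 was at 63.9, 43.8 and 38.2 normalised counts and in HEC tumour at 9.24, 7.89 and 0, which was called lower and puts HEC tumour at the floor.

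Col3a1, the chain of type III collagen in elastic tissues, fell 6.05-fold with tumour in BECs, from 4462, 3873 and 4049 to 784, 871 and 391 normalised counts (adjusted p = 0.00627). It was at most 95.3 in any HEC library. Col2a1, the chain of cartilage type II collagen, had 1990, 1725 and 2006 normalised counts in BEC normal and 54.7, 71.1 and 55.8 in BEC tumour, a 31.5-fold fall (adjusted p = 1.49e-76). In HECs its values were higher with tumour, at 279, 185 and 196 beside 110, 177 and 89.8, without reaching the limit for a call (log2 0.81 ± 0.26, adjusted p = 0.00792). Col2a1 thus had the reverse order of groups in the 2 cell types, and the contrast of the changes was 5.79 ± 0.37 (adjusted p = 2.53e-52).

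Type V collagen starts and thins type I fibrils. Col5a1 was among the steadiest of the high collagens, at 19516, 20388 and 19456 normalised counts in BEC normal and 17523, 19108 and 16492 in BEC tumour (log2 -0.16 ± 0.07, not called). HEC normal had 8832, 9329 and 8902 and HEC tumour 10752, 9829 and 10546. Its partner chain Col5a2 (chr1:45374321-45503282, minus strand) had 23635, 22964 and 24175 in BEC normal, 2072, 2824 and 2618 in BEC tumour and at most 16.3 in any HEC library. The ratio of Col5a1 to Col5a2 per kb was 0.948 ± 0.0488 in BEC normal and 8.10 ± 1.28 in BEC tumour (SD, n = 3), so the ratios of the BEC groups did not overlap.

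The fitted fall of Col5a2 in BECs was 9.42-fold with a wide error (log2 -3.24 ± 1.36, adjusted p = 0.0344). Its adjusted p over the alternatives ran from 5.09e-139 to 0.611, and the call was lost without any 1 of the 6 BEC libraries, without HEC tumour replicate 1 or 2 and with the replicate block, although no BEC tumour library came near a BEC normal one. Col5a3, the less common type V chain, went the opposite way in the 2 cell types. It had 715, 891 and 816 normalised counts in BEC normal and 228, 470 and 238 in BEC tumour, a 2.59-fold fall, but rose 2.98-fold in HECs, from 70.0, 35.6 and 45.9 to 88.9, 150 and 212.5 (adjusted p = 4.16e-04). The contrast of the changes was 2.95 ± 0.55 (adjusted p = 4.44e-07).

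Col11a1 and Col11a2 are the type XI chains, close kin of type V. Col11a1 had between 998 and 1241 normalised counts in the 6 BEC libraries, with overlap of the groups, and between 510 and 745 in the 6 HEC libraries. Col11a2 (chr17:34039437-34066685, plus strand) had 104, 90.6 and 49.8 in BEC normal, 101, 49.1 and 89.8 in BEC tumour and 68.0, 73.3 and 53.5 in HEC normal. In HEC tumour it had 294, 324 and 279 normalised counts, above every other endothelial library, a 4.61-fold rise (log2 2.20 ± 0.35, adjusted p = 6.21e-09). The contrast of the changes was 2.23 ± 0.50 (adjusted p = 3.92e-05). Col27a1 rose 2.50-fold in BECs, from 167, 91.8 and 90.4 to 284, 394 and 197, and its HEC values of 219, 251 and 222 and then 472, 456 and 403 lay 1.92-fold apart without a call (adjusted p = 0.00738). Col24a1 was at 4.71 normalised counts or less in every endothelial library.

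Type VI collagen forms beaded microfibrils near basement membranes, from Col6a1, Col6a2 and a further chain. Col6a1 had 8411, 9601 and 9254 normalised counts in BEC normal and 2740, 3447 and 2856 in BEC tumour, a 3.01-fold fall (adjusted p = 7.61e-56). HEC normal had 2089, 2031 and 2189 and HEC tumour 1550, 1562 and 1707, without overlap but 1.31-fold apart and not called. Col6a2 had 3069, 3474 and 3562 in BEC normal and 325, 670 and 271 in BEC tumour (7.98-fold lower, adjusted p = 0.104, not called), and at most 46.8 in any HEC library. Its BEC groups did not overlap, and the fall was called with edgeR, with the BEC libraries fitted alone and with values in steps. It was also called without HEC normal replicate 3 and without HEC tumour replicate 1. The ratio of Col6a1 to Col6a2 per kb was 5.13 ± 0.17 in BEC normal and 15.3 ± 5.16 in BEC tumour (SD, n = 3).

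Col6a3 fell 4.42-fold in BECs, from 3819, 3322 and 3412 to 453, 1656 and 279 normalised counts (adjusted p = 3.26e-05), with BEC tumour replicate 2 well above the other libraries of its group. The log2 fold change was -2.14, and -3.26 without that library. In HECs it lay between 52.0 and 99.4. Col6a5, an alternative to the Col6a3 chain, was at 75.1, 69.4 and 10.5 in BEC tumour, at 0, 0 and 12.2 in BEC normal and at 0 in all 6 HEC libraries, which makes it at least 3-fold lower in HEC tumour than in BEC tumour against a floor of 13.3 normalised counts per library. Col6a6 was at 14.8, 10.2 and 9.59 in BEC tumour and at 0 in the other 9 endothelial libraries, and Col6a4 was at 22.9, 27.1 and 13.2 in BEC normal and at most 5.57 elsewhere. Neither was tested.

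The short-chain collagen Col8a1 (chr16:57624258-57754737, minus strand), whose promoter with 4 GC boxes is printed above, is known from the walls of vessels. It had 9145, 7861 and 8414 normalised counts in BEC normal and 1849, 1847 and 1877 in BEC tumour, a 4.56-fold fall (log2 -2.19 ± 0.11, adjusted p = 3.89e-81). In HECs it fell 6.40-fold, from 1551, 1252 and 1544 to 257, 192 and 231 (log2 -2.68 ± 0.13, adjusted p = 5.38e-95). Of the tested collagen genes only Col8a1 and Col1a1 were called lower with tumour in both cell types, and only for Col8a1 was every group above the floor. The contrast of the changes was -0.49 ± 0.17 (adjusted p = 0.011), inside the limit for a call. HEC normal and BEC tumour were neighbours in the order of levels and did not overlap. Its partner Col8a2 had 40.6, 42.4 and 35.6 in BEC normal and at most 20.4 elsewhere, and Col10a1, a collagen of hypertrophic cartilage, had 13.9 or less.

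Fibril-associated collagens bind to the surface of fibrils. Col12a1, found on type I fibrils, had 3367, 2344 and 2675 normalised counts in BEC normal, 844, 786 and 535 in BEC tumour (3.87-fold fall, adjusted p = 1.8e-11) and between 38.7 and 131 in HECs. Col16a1 had 4463, 4895 and 4772 in BEC normal and 381, 633 and 546 in BEC tumour (9.06-fold fall, adjusted p = 0.00313), and at most 18.8 in any HEC library. Beside these falls the pericyte and smooth muscle sum was lower in BEC tumour, and its part in them was not tested. Both genes had their lowest levels in HECs.

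Col20a1 (chr2:180986535-181018363, plus strand, with 79 bases, 1.54% of its exons, shared with another annotated gene) behaved as Col11a2 did. It had 589, 605 and 553 normalised counts in HEC tumour and 90.3, 98.7 and 52.6 in HEC normal. BEC tumour had 98.3, 57.5 and 38.4 and BEC normal 130, 67.1 and 65.0. HEC tumour stood above all other endothelial libraries, a 7.24-fold rise over HEC normal (log2 2.86 ± 0.40, adjusted p = 1.21e-11), and the contrast of the changes was 3.29 ± 0.57 (adjusted p = 4.33e-08). Col9a3 (chr2:180597790-180622189, plus strand, sharing 6.07% of its exon bases with Tcfl5) exceeded its BEC normal level 3.74-fold in HEC normal, at 147, 205 and 237 beside 54.7, 40.0 and 62.0, and its BEC tumour level 4.09-fold in HEC tumour, at 327, 242 and 311 beside 74.2, 82.9 and 57.5. Reads of the shared bases cannot be given to 1 of the 2 genes where strand was not used, and whether it was is not given in the sources used here.

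Col22a1, a collagen of tissue junctions such as that of muscle and tendon, was at 13.2, 9.41 and 10.2 normalised counts in BEC normal, which is at the floor, and at 68.6, 63.5 and 71.5 in BEC tumour. HEC normal had 68.0, 22.4 and 65.9 and HEC tumour 36.9, 39.5 and 34.3, with overlap. It was the gene called lower in the contrast of the changes (adjusted p = 2.69e-05), whose size is not resolved with BEC normal at the floor. Col14a1 had at most 25.0 in any endothelial library, Col9a1 was at 0 in all 12, and Col9a2 and Col19a1 had a value above 0 in 1 library each.

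Transmembrane collagens sit in the plasma membrane with their helix outside the cell. Col13a1 (chr10:61838236-61979108, minus strand) had 4079, 4156 and 3990 normalised counts in BEC normal and 0, 0 and 0 in BEC tumour, so it was at least 380-fold lower in BEC tumour against a floor of 10.7 normalised counts per library. HEC normal had 4.06, 15.3 and 11.5, and HEC tumour 2.31, 63.2 and 39.9. It was high in BEC normal alone of the 4 groups. Col23a1 had 735, 833 and 662 in BEC normal and 64.9, 104 and 61.9 in BEC tumour (log2 -3.27 ± 1.24, adjusted p = 0.0178), and HECs had at most 15.3. The call of Col23a1 in BECs was lost without any 1 BEC library, although the BEC groups did not overlap. Col17a1, of the junction between skin layers, ran from 7.65 to 126 across the endothelial libraries, and its call as lower in HEC normal than in BEC normal (adjusted p = 0.0199) was lost without replicate 3 of either group. Col25a1 was at 3.53 or less except for 26.6 in HEC tumour replicate 2.

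Col7a1, the collagen of anchoring fibrils below skin, was at 953, 1011 and 963 normalised counts in BEC normal and at 875, 1081 and 966 in HEC normal, where the ranges overlapped. With tumour it was at 710, 734 and 909 in BECs and at 1815, 1592 and 1658 in HECs. The HEC difference of 1.73-fold (log2 0.79 ± 0.13, adjusted p = 3.76e-09) stayed inside the limit for a call and the BEC difference was -0.31 ± 0.13 on the log2 scale. The contrast of the changes was 1.11 ± 0.18 (adjusted p = 3.95e-09). Col28a1 and Col26a1 had 13.1 normalised counts or less in every endothelial library.

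Genes that modify, export, trim and cross-link collagen were read from lists that had been set with earlier results of these data known. The background in BECs was the same 10.8% of all genes lower and 12.4% higher with tumour. Among the 13 tested genes of hydroxylation and glycosylation, 5 fell and none rose with tumour in BECs, led by P3h2 (prolyl 3-hydroxylase, log2 -4.98 ± 1.46), P4ha3 (a prolyl 4-hydroxylase subunit, -2.30 ± 0.23) and P3h4 (-1.14 ± 0.11). The median log2 fold change of this list was -0.38. Among 9 folding and export genes only Fkbp14, a foldase of the endoplasmic reticulum, fell (log2 -2.08 ± 0.15).

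Of the 6 tested genes of propeptide removal, 5 fell with tumour in BECs at a median of -2.42 on the log2 scale. The leading ones were Adamts2 (-2.92 ± 0.64) and Pcolce (-2.49 ± 0.17), which act at opposite ends of the procollagen chain, and Adamts14 (-2.46 ± 0.21). Pcolce, the enhancer of the C-proteinase, went from a mean of 18008 ± 2689 to 3215 ± 747 normalised counts (SD, n = 3). Among 6 cross-linking genes Lox (-3.36 ± 1.28), Loxl2 (-1.53 ± 0.11) and Loxl1 (-1.47 ± 0.18) fell, at a list median of -1.17. Beside these falls the pericyte and smooth muscle markers summed to 874 to 906 CPM in BEC normal and 82.0 to 126 CPM in BEC tumour, and their part was not tested. The lysyl oxidase gene Lox itself had means of 6709 in BEC normal, 653.5 in BEC tumour and 10.97 in HEC normal.

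Of the 8 tested collagen receptors, Itga1, the integrin chain for type I and IV collagen, and Lair1, an inhibitory receptor of leukocytes, rose with tumour in BECs, while Itga2, Itga10 and Mrc2 fell. Itga1 rose from 485 ± 39.9 to 3875 ± 435 normalised counts (log2 3.00 ± 0.10). Lair1 was at 0 in BEC normal and at 351 ± 132 in BEC tumour, beside the leukocyte marker sums of 603 to 993 CPM there. Mrc2, an uptake receptor for collagen, went from 6045 ± 240 to 1242 ± 281 (log2 -2.28 ± 0.16).

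In HEC normal against BEC normal the same lists gave 3 lower genes of 13 (P4ha3, P3h2, Crtap), 2 of 9 (Fkbp14, Sparc), 5 of 6 propeptide genes, 2 of 6 cross-linking genes (Lox, Loxl1) and 3 of 8 receptors, with Itga1 as the 1 higher gene at log2 2.51 ± 0.11, against 15.1% of all genes lower and 17.1% higher. HEC tumour against BEC tumour gave 2 lower genes of hydroxylation (P4ha3, P3h2) and 1 of folding and export (Fkbp14), 3 lower of propeptide removal, 2 higher (Loxl2, Loxl4) and 1 lower (Lox) of cross-linking, and 2 higher (Itga2, Itga10) and 2 lower (Lair1, Mrc2) receptors, against 10.7% of all genes lower and 11.2% higher. With tumour in HECs the calls were few: Fkbp14 (log2 -1.08 ± 0.16) and Adamts14 (-1.46 ± 0.21) fell, Loxl1 rose (1.09 ± 0.18), and Tll1 was called higher between groups that both lay under the floor. Neither a hydroxylation gene nor a receptor was called there, where 4.58% of all genes rose and 3.21% fell.

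EO771 cells held less collagen RNA than the sorted cells held in their own table, at 580 ± 15.0 CPM with vehicle and 614 ± 20.3 CPM with 12-HETE (mean ± SD, n = 3). The tables were normalised separately, so this sets the levels side by side without a test. For EO771 cells given vehicle or 12-HETE the methods of the study name a directional library kit and an MGISEQ sequencer. Their general RNA-seq section names another kit and an Illumina NovaSeq. Library type and sequencer therefore cannot be told apart from the source of the cells. Here 15 of the 44 genes reached the mean of 10 needed for a test, and the other 29 included every type I, II, III and V chain. The highest levels per kb of exon were those of Col4a1 (657 with vehicle, 706 with 12-HETE), Col4a2 (336 and 421) and Col8a1 (158 and 256). Col5a1 and Col11a1 were at 0 in all 6 EO771 libraries, while they stood at 510 normalised counts or more in every endothelial library.

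With 12-HETE, 6 of the 15 tested genes fell and 0 rose, at a median log2 fold change of -0.70, and with edgeR also 0 rose. At an unadjusted p under 0.05, whatever the fold change, 2 genes were higher, Col4a2 and Col8a1. Among all 11602 genes tested 7.79% fell and 2.38% rose. The genes that fell were the fibril-associated Col9a3, Col20a1 and Col22a1, the type VI chains Col6a3 and Col6a5, and the fibrillar Col11a2. With the replicate block 4 fell: Col11a2 (log2 -1.21) and Col6a5 (-1.10) were no longer called. Whether the replicate numbers pair these libraries was not established. The 6 epithelial markers summed to between 2868 and 3785 CPM with vehicle and between 1930 and 1986 CPM with 12-HETE, and the fibroblast list to between 395 and 620 and between 1006 and 1045 CPM, carried by Dcn at means of 9083 and 18401. Genes with a count above 0 numbered 14391, 14905 and 14702 with vehicle and 14066, 14102 and 14162 with 12-HETE. The 6 called genes were low, with vehicle means from 41.2 normalised counts for Col11a2 to 102 for Col20a1. The uncalled Col27a1, Col6a1 and Col16a1 lay in the same range. The part of these shifts in the collagen values was not tested.

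**Figure D5:**
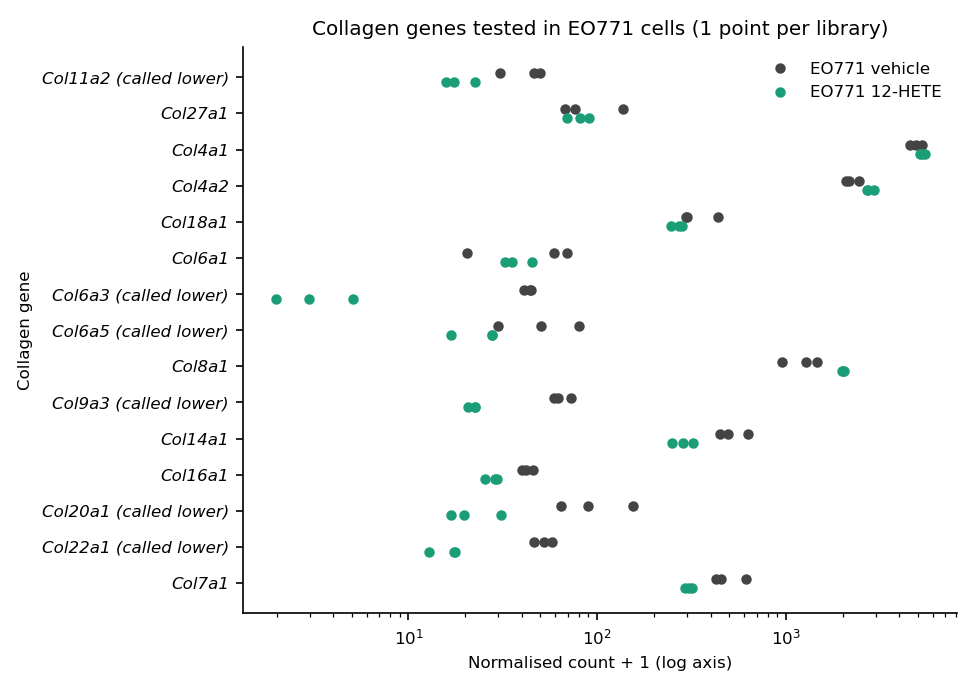
Normalised count plus 1 (log axis) of the 15 collagen genes tested in EO771 cells, 1 point per library, with the 6 genes called lower marked in their labels. The 12-HETE points lie to the left of the vehicle points without overlap for Col6a3, Col9a3, Col20a1 and Col22a1 among others, and to the right for Col4a2 and Col8a1.

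Col20a1 fell 4.76-fold, from 63.3, 154 and 88.0 normalised counts with vehicle to 29.8, 15.8 and 18.7 with 12-HETE (log2 -2.25 ± 0.42, adjusted p = 5.67e-07). Col9a3 fell 3.04-fold, from 58.4, 61.2 and 71.7 to 21.6, 19.7 and 21.7 (adjusted p = 4.01e-06). Col22a1 fell 3.41-fold, from 45.5, 56.4 and 51.2 to 16.4, 11.8 and 16.7 (adjusted p = 1.2e-05). The groups overlapped for none of these 3 genes, all of the fibril-associated class. The other 2 tested genes of that class were not called: Col14a1 had 491, 630 and 449 and then 323, 247 and 283 (log2 -0.88 ± 0.18, adjusted p = 5.14e-06), and Col16a1 had 44.5, 41.1 and 38.9 and then 27.7, 28.6 and 24.6 (adjusted p = 0.107).

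Col6a3 (adjusted p = 3.25e-09) had 43.5, 40.1 and 43.0 normalised counts with vehicle and 4.11, 1.97 and 0.984 with 12-HETE, which puts the treated group under the floor of 3 counts. Col11a2, whose promoter is printed above, had 29.7, 48.7 and 45.0 and then 16.4, 14.8 and 21.7, a 2.33-fold fall without overlap (adjusted p = 0.00689) whose call was lost without 12-HETE replicate 1 or 2. Col6a5 had 28.7, 79.3 and 49.1 and then 26.7, 15.8 and 26.6, where the lowest vehicle library lay just above the highest treated one (adjusted p = 0.0218), and its call was lost without any 1 of 4 libraries. Col26a1, which was not tested, had 1.98, 32.5 and 2.05 with vehicle and 0 in all 3 treated libraries.

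The most abundant collagens of EO771 cells did not fall. Col4a1 had 5298, 4550 and 4869 normalised counts with vehicle and 5436, 5134 and 5238 with 12-HETE, with overlap (log2 0.10 ± 0.09, adjusted p = 0.365). Col4a2 had 2451, 2074 and 2151 and then 2943, 2687 and 2728 (log2 0.32 ± 0.10, adjusted p = 0.00546), and Col8a1 had 1284, 952 and 1467 and then 2021, 1979 and 2014 (log2 0.70 ± 0.16, adjusted p = 5.69e-05). Both lay higher with 12-HETE without overlap and inside the limit for a call. Counted per kb of exon, the short-chain share of collagen signal was 11.2% ± 2.28 with vehicle and 16.7% ± 0.388 with 12-HETE, and the fibril-associated share 8.78% ± 1.84 and 3.69% ± 0.360 (SD, n = 3), each without overlap.

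Col7a1 had 452, 611 and 425 normalised counts with vehicle and 292, 316 and 307 with 12-HETE (log2 -0.70 ± 0.17, adjusted p = 1.96e-04, not called). Col18a1 (adjusted p = 0.0982), Col27a1 (0.57) and Col6a1 (0.481) did not pass the test. Of the collagen biosynthesis and receptor lists, the propeptide genes Pcolce2 (log2 1.34 ± 0.12) and Adamts14 (-1.46 ± 0.16) were called among 4 tested, Itga11 was called lower among 8 receptors with its treated group under the floor, and no gene was called among 8 tested of hydroxylation, 6 of folding and export and 2 of cross-linking. The background was again 7.79% of all genes lower and 2.38% higher.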

How the data were processed

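Sorted mouse endothelial cells (12 libraries) and EO771 cells (6 libraries) were profiled by RNA-seq. According to the study's methods, the authors aligned reads with STAR to GRCm38 and used featureCounts to count fragments. The endothelial values deposited by the authors are whole numbers in steps of about 3.845 (3.765 to 3.885 per library) and were treated as estimated counts, although the methods describe counts. The EO771 values deposited by the authors are raw counts. What produced the steps, and whether strand was used in counting, are not given in the sources used here.

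Samples were grouped by their titles. Genes with a mean of at least 10 (18511 endothelial, 11602 EO771) were tested two-sided with DESeq2 1.42.0 in R 4.3.3, with 1 fit over the 12 endothelial libraries and another over the 6 EO771 libraries, and Benjamini-Hochberg adjustment over all genes of a table. Normalised counts are values divided by DESeq2 size factors, and levels between genes were compared per kb of merged GENCODE exon. CPM values used the library total. An absent signal allows up to 3 counts or steps, and this covers counting error only. Symbols were joined to Ensembl identifiers, with 260 endothelial identifiers lacking a symbol and 298 EO771 symbols unmatched.

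The collagen genes, the biosynthesis, receptor and marker lists and the tests were chosen with earlier results of these data known. Every collagen gene could be named. Of the other lists, a comparison named at most the 3 called genes per list with the largest log2 fold change in size, and further genes where a count of 5 or fewer rested on them. The deviations of same-numbered EO771 libraries had correlations of 0.111, 0.173 and 0.328. Libraries of different numbers were not compared, so these values cannot show whether the numbers pair the libraries. The alternatives were edgeR 4.0.16, other scalings, no filter, other call rules, a replicate block, fits of 2 groups, values in steps and each library left out. Sums of markers and of collagens, and ratios of chains, were not tested.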

Additional observations from a re-analysis of the deposited data

Results flagged for a closer look

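For 15 collagen genes HECs and BECs differed in how they changed with tumour, by the DESeq2 test of the contrast itself (change in HECs less change in BECs, log2 scale, adjusted p under 0.05 and over 1 in size). Among the fibrillar genes the contrast was 5.79 for Col2a1, 2.95 for Col5a3 and 2.23 for Col11a2. Among the basement membrane genes it was 4.39 for Col18a1, 4.06 for Col4a6 (5.22 without HEC normal replicate 3), 1.16 for Col4a1 and 1.16 for Col4a2. For the type VI chains it was 1.86 for Col6a3, or 2.98 without BEC tumour replicate 2, and 1.20 for Col6a1. For the fibril-associated genes it was 3.29 for Col20a1 and 1.06 for Col12a1. It was 1.11 for the anchoring-fibril gene Col7a1. The sizes of 3 fitted contrasts are not resolved: 16.39 for Col13a1 rests on a BEC tumour group with no count and a HEC normal group under the floor, 5.97 for Col16a1 on HEC groups that both lay under the floor, and -3.12 for Col22a1 on a BEC normal group at the floor. The 4.06 for Col4a6 rests on a HEC normal group just above the floor, at 0, 12.2 and 28.7 normalised counts.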

How the results depend on the processing

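The 94 calls among 180 tested pairs of gene and comparison were recomputed under every alternative, and 57 held under each of them. Of 3588 recomputed fold changes of single genes, 3410 stayed on their side of the threshold, 105 lost a call and 73 gained one. With 0 reversals among called values, sign changes occurred only in genes that were called in neither fit. Under the stricter test against a log2 fold change of 1, the counts were 1 higher in HEC normal against BEC normal, 4 higher and 12 lower in HEC tumour against BEC tumour, 1 higher and 1 lower with tumour in HECs, 1 higher and 8 lower with tumour in BECs, 7 higher in the contrast of the changes, and 1 lower with 12-HETE. With adjusted p alone, the counts were 8 higher and 5 lower with tumour in HECs, 3 lower in the contrast and 2 higher with 12-HETE. Of all 18511 endothelial genes, the stricter test called 1636 higher in HEC normal against BEC normal. It called 687 higher and 1001 lower in HEC tumour against BEC tumour. With tumour it called 64 higher and 105 lower in HECs, and 1092 higher and 986 lower in BECs. In the contrast it called 814 higher, and of 11602 EO771 genes 391 lower. Adjusted p alone called 3128 higher and 3426 lower with tumour in HECs, 4397 lower in the contrast and 2637 higher with 12-HETE. These rules ask for larger or smaller changes by their own construction.

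With each library left out in turn, the counts ran from 2 to 3 higher and 21 to 23 lower in HEC normal against BEC normal, 6 to 7 higher and 15 to 19 lower in HEC tumour against BEC tumour, 3 to 6 higher and 2 to 5 lower with tumour in HECs, 2 to 3 higher and 13 to 18 lower with tumour in BECs, 13 to 15 higher and 1 lower in the contrast, and 0 higher and 4 to 6 lower with 12-HETE. Over all genes, of which 18443 to 18583 endothelial ones were tested, the same fits called 2954 to 3255 higher and 2632 to 2843 lower in HEC normal against BEC normal. In HEC tumour against BEC tumour they called 1860 to 2127 higher and 1776 to 2063 lower. With tumour they called 706 to 856 higher and 560 to 637 lower in HECs, and 2038 to 2465 higher and 1811 to 2054 lower in BECs. The contrast gave 1916 to 2103 higher and 2084 to 2378 lower, and 12-HETE gave 226 to 511 higher and 792 to 945 lower. The highest collagen counts with tumour in HECs were 6 without HEC normal replicate 2 and 5 without HEC normal replicate 3 or HEC tumour replicate 3 for genes that rose, and 5 without HEC tumour replicate 1 for genes that fell. The cause was not tested.

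With the replicate number as a block, 14 collagen genes fell and 2 rose with tumour in BECs, 2 fell and 3 rose with tumour in HECs, 18 were lower and 7 higher in HEC tumour against BEC tumour, 23 lower and 3 higher in HEC normal against BEC normal, 14 higher and 1 lower in the contrast, and 4 fell with 12-HETE. Over all 18511 endothelial genes the block gave 2301 higher and 1941 lower with tumour in BECs and 812 higher and 567 lower in HECs. It gave 2077 higher and 1986 lower in HEC tumour against BEC tumour, and 3181 higher and 2819 lower in HEC normal against BEC normal. The contrast gave 2012 higher and 2212 lower, and 808 of 11602 EO771 genes fell. For the endothelial libraries the correlations of same-numbered deviations ran from -0.015 to 0.126. Whether the numbers pair libraries was not established in either table.

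With 3 libraries per group, and values near the floor in 1 or more groups for many collagens, some fold changes have standard errors above 1 on the log2 scale. Among them were those of Col5a2, Col23a1 and Col15a1 with tumour in BECs, genes whose HEC groups lay at or under the floor. Low genes such as Col11a2 and Col20a1 had smaller errors with tumour in HECs. The steps in the endothelial values mean that 1 unit is not 1 fragment. Fitting the values in steps moved no count past 1.5 times.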

Other observations

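The collagen chaperone gene Serpinh1 was singled out after its values were seen. It had 38746, 41523 and 40549 normalised counts in BEC normal, 65095, 25600 and 30673 in BEC tumour, 27803, 65516 and 64794 in HEC normal and 51459, 51566 and 22710 in HEC tumour, so its spread within 3 of the 4 sorted groups exceeded the difference between any group means. In the EO771 table it was listed at 0, 2.87 and 1.02 with vehicle and at 1.03, 0 and 0 with 12-HETE, beside 4550 to 5436 normalised counts of Col4a1 in the same libraries.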
